A study of Homo sapiens with 4 samples.

Results

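The proteasome subunit genes were examined in GIST-T1 cells given a miR-335 mimic. GIST-T1 is an established line from a human gastrointestinal stromal tumor, a mesenchymal tumor of the gut wall. The members were all non-control array probes whose gene name was PSMA, PSMB, PSMC, PSMD, PSME, PSMF or PSMG followed by a number, which gave 48 genes of the 36337 gene names on the array. The study used these arrays to look for transcripts that respond to the miRNA. Cells were transfected with 100 pmol of either the miR-335 mimic or a control miRNA (the negative control), and RNA was taken at 48 h. All samples were the same cell line, and nothing else differed between the groups by the labels. Each group had 2 arrays. The design has no untransfected cells and a single cell line. The labels do not say that the arrays of a group came from separate cultures, so p-values measured the spread between these arrays. One descriptive line of the mimic labels names miR-34a, whereas their title and treatment name miR-335, so the mimic is called miR-335 as the treatment label gives it.

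The proteasome is the large protease that degrades ubiquitin-tagged proteins. Its barrel-shaped core is built of outer alpha rings and inner beta rings, and the beta rings hold the catalytic sites. A regulatory cap sits on each end of the barrel. The ATPases of the cap (PSMC genes) unfold the substrate, and its other subunits (most PSMD genes) bind and remove ubiquitin. Cells exposed to interferon replace the catalytic subunits PSMB5, PSMB6 and PSMB7 by the inducible PSMB8, PSMB9 and PSMB10. That form, the immunoproteasome, is known for making peptides for antigen presentation. PSME1 and PSME2, which form the activator PA28, are also interferon-inducible. Tumor cells in general depend on the constitutive proteasome for protein quality control.

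The sequences below are of miR-335 and of promoter stretches of some member genes. The labels give no arm for the mimic. The mature 5p arm of miR-335 from RefSeq (GRCh38.p14) is shown with bases 2 to 8, the seed, in capitals. The 30-base promoter stretches hold in capitals a core of the interferon regulatory factor element, GAAA, any 2 bases and GAAA again, or its reverse complement in the PSME1 line.

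hsa-miR-335-5p: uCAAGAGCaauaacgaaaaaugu
PSMB10: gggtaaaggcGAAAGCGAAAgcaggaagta
PSME2: cctggggagtGAAAGCGAAAgcccgggcga
PSME1: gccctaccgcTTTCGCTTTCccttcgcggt
PSMG4: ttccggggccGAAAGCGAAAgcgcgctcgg
PSMB4: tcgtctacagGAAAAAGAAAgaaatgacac
PSMA4: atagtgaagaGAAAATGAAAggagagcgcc

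These stretches lay at chr16:67936852-67936881 on the minus strand for PSMB10, chr14:24146619-24146648 on the minus strand for PSME2 and chr14:24136189-24136218 on the plus strand for PSME1. Those of PSMG4, PSMB4 and PSMA4, all on the plus strand, were at chr6:3258904-3258933, chr1:151399495-151399524 and chr15:78540155-78540184. PSMB10, PSME2, PSME1 and PSMG4 shared the same 10 letters, read in PSME1 on the opposite strand. The window ran from 250 bases before to 50 bases after each gene's start and was found for 42 of the 48 genes. PSMA7, PSMB1, PSMB6, PSMB7, PSMD4 and PSMG3 were the others. Searched on both strands, this element was in 6 of the 42 windows (14.3%) and in 3.57% of all 35116 promoters. Of the inducible catalytic genes only PSMB10 had it, and the windows of PSMB8 and PSMB9 did not. The antioxidant response core TGACNNNGC, a motif bound by NFE2L1 and NFE2L2 with small Maf proteins, was in 13 windows (31.0%, against 13.3% of all). CCAAT, bound by the NFY complex, was in 19 (45.2% against 34.6%), and TTCNNNGAA, a gamma activation site, in 5 (11.9% against 7.66%). Each member gene had a single window. All promoters were neither reduced to a single window per gene nor limited to expressed genes, so these shares come from unmatched sets. No matches of different motifs overlapped, and a match is a run of letters, not a shown binding site. On the array side, the 7 letters complementary to the miR-335-5p seed, GCTCTTG, were in 221 of 50599 probe sequences (0.437%) and in 0 of the 72 member probes. A probe covers 60 bases of a transcript, so this says nothing of the rest of it.

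Values are log2 processed signal minus each array's 75th percentile, called normalized log2 signal. A probe entered the test where 1 group or both had it flagged well above background on each of its 2 arrays. Of the 72 member probes, 61 were tested and all of these were well above background on all 4 arrays. They covered 46 genes. The other 2, PSMA8, a testis-restricted alpha subunit, and PSMB11, the thymus-restricted beta subunit, were not well above background on any array. A gene is given by its brightest tested probe. The share of all probes so flagged was 40.3% to 41.9% by array, and no spot was saturated. All 4 arrays were on 1 slide, with the controls at adjacent positions and the mimics at the next ones, so position and group cannot be told apart. All 6 GIST markers (KIT, ANO1, ETV1, PDGFRA, PRKCQ and CD34) passed that flag on every array, and all 6 were lower with the mimic without passing the test, from -0.33 for KIT to -0.073 for ANO1. Of the markers of other cells, PTPRC, CD3E, HLA-DRA, KRT20, CDH1, PECAM1 and VWF were not well above background on any array and CD68 and CDH5 on 2. EPCAM and CD14 were on all 4, at differences of -0.89 and 0.13 that did not pass the test, and their part in the results was not tested. In bulk RNA, fewer cells of a type and less RNA per cell cannot be told apart.

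No proteasome subunit gene passed the test. By limma with Benjamini-Hochberg adjustment at 0.05 over 20328 tested probes, 0 of 46 genes were called, against 1.15% of all tested probes called lower and 1.47% called higher. At an unadjusted p under 0.05, 5 genes were lower (10.9%) and 4 higher (8.7%), and the shares over all tested probes were 13.7% and 11.7%. No gene's group means were more than 1.5-fold apart, against 3.9% of all tested probes. The 46 differences (mimic minus control) had a median of 0.011 and ran from -0.28 for PSMB8 to 0.15 for PSMD13. Over all tested probes the median was -0.014, with a 5th percentile of -0.35 and a 95th of 0.39. All 46 genes lay within those limits. The median size of the difference, without its sign, was 0.061 for the members and 0.10 for all tested probes. The spread between replicate arrays was also smaller for the members. Their median absolute difference between replicates was 0.026 for the mimic arrays and 0.034 for the controls, against 0.064 and 0.063 over all probes. In these comparisons each member is its gene's brightest probe. All tested probes include further and dimmer ones, and the sets were not matched on signal. The groups did not overlap in 28 genes, with the mimic arrays above in 17 (37%, against 27.1% of all tested probes) and below in 11 (23.9%, against 32.5%). Both groups' arrays overlapped in 18.

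**Figure D1:**
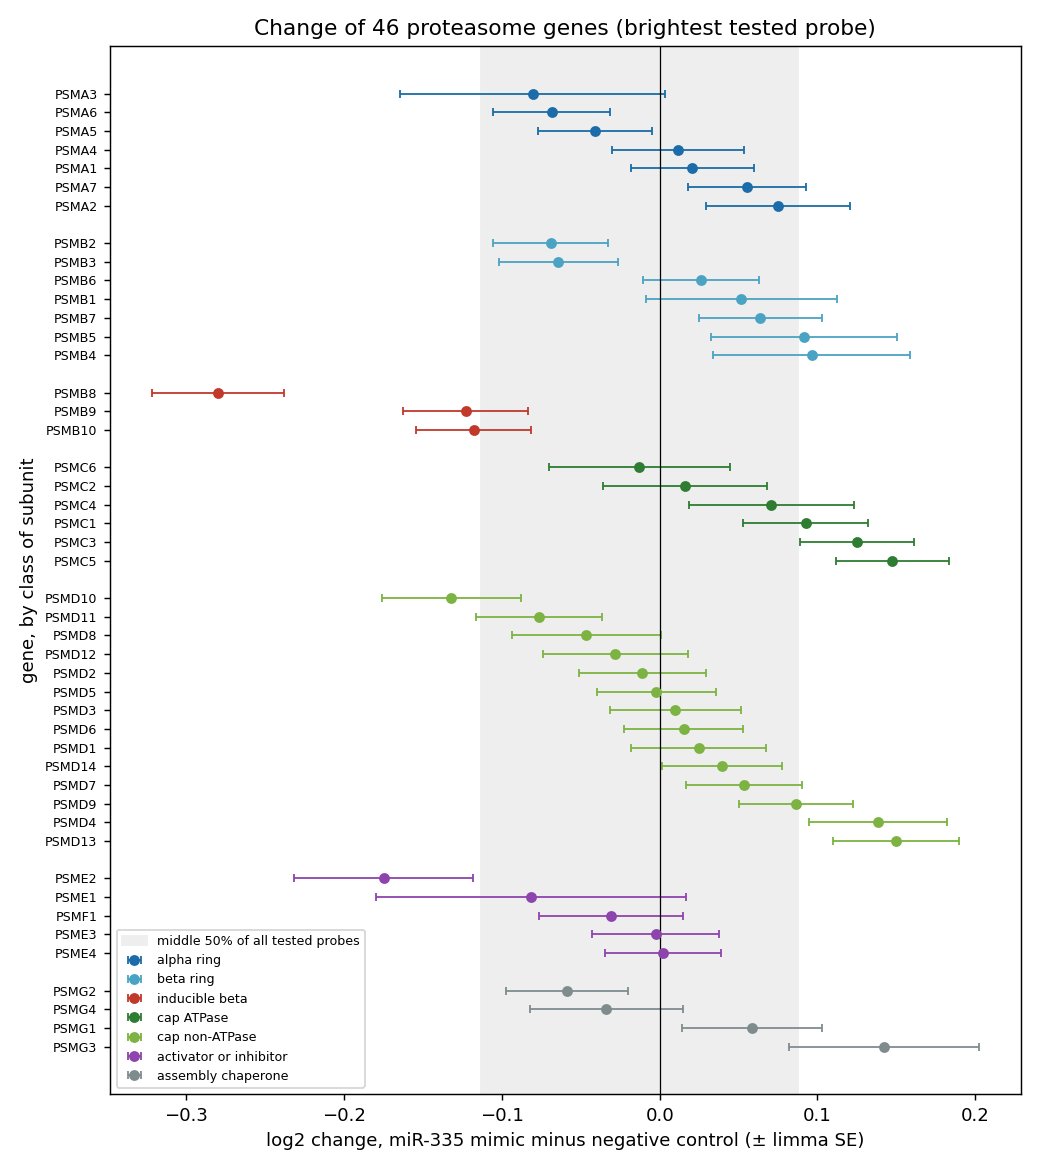
Difference in normalized log2 signal, mimic minus negative control, for the 46 tested genes by class of subunit, with limma's standard error (2 arrays per group). Each gene is shown by its brightest tested probe. The grey band is the middle 50% of all tested probes, from -0.11 to 0.088. Below it lie 5 genes, PSMB8 at -0.28, PSME2, PSMD10, PSMB9 and PSMB10, and above it 8 genes, from PSMB5 at 0.091 to PSMD13 at 0.15.

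The inducible catalytic subunits had lower signal on both mimic arrays than on either control array. PSMB8, which replaces the chymotrypsin-like subunit PSMB5, is in the class II region of the major histocompatibility complex (its probe is at chr6:32810023-32810490 of hg19, minus strand). Its normalized log2 signal was 1.33 and 1.28 on the mimic arrays and 1.61 and 1.57 on the controls. The groups were apart by far more than their replicates. The difference was -0.28 ± 0.042 (limma SE, n = 2 and 2, adjusted p = 0.0723), a ratio of 0.824. This was the lowest of the 46 genes.

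PSMB9, in the same region at chr6:32823918-32823977, takes the place of the caspase-like subunit PSMB6. It read 1.84 and 1.87 with the mimic against 1.99 and 1.96 in the controls, a difference of -0.12 ± 0.039 (limma adjusted p = 0.179). PSMB10, which stands in for the trypsin-like subunit PSMB7, is on chromosome 16 (chr16:67968412-67968471, minus strand). It read 5.14 and 5.16 with the mimic and 5.27 and 5.26 in the controls, a difference of -0.12 ± 0.037 (limma adjusted p = 0.171). In each of the 3 genes both mimic arrays were the lowest, and none passed the adjusted threshold in limma. The count of 3 with the mimic below is to be read against the 32.5% of all tested probes with that order.

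The constitutive partners were not lower. PSMB5 read 5.65 and 5.71 with the mimic against 5.54 and 5.65 in the controls (0.091 ± 0.059). PSMB6 read 6.75 and 6.78 against 6.74 and 6.73 (0.027 ± 0.037). PSMB7 read 6.36 and 6.35 against 6.31 and 6.27 (0.064 ± 0.039). The mimic arrays were above the controls in all 3, in PSMB5 by less than the gap between its controls, and no difference passed the test (limma adjusted p from 0.383 to 0.684). That count is to be read against the 27.1% of all tested probes with the mimic above. The PSMB5 difference was 0.036 without control replicate 1 and 0.15 without control replicate 2.

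Each inducible subunit was then set against its partner within each array, and the differences were compared between groups. Centred on the control mean, PSMB8 minus PSMB5 was -0.32 and -0.43 on the mimic arrays against 0.073 and -0.073 on the controls, a shift of -0.37. PSMB9 minus PSMB6 was -0.15 on both mimic arrays against 0.014 and -0.014, a shift of -0.15. PSMB10 minus PSMB7 was -0.20 and -0.16 against -0.014 and 0.014, a shift of -0.18. In all 3 pairs the inducible subunit was lower relative to its partner on both mimic arrays. With 2 arrays a group the smallest two-sided p of an exact permutation test is 0.333, so these shifts are given without a test. The ratio within an array shows unequal change only.

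**Figure D2:**
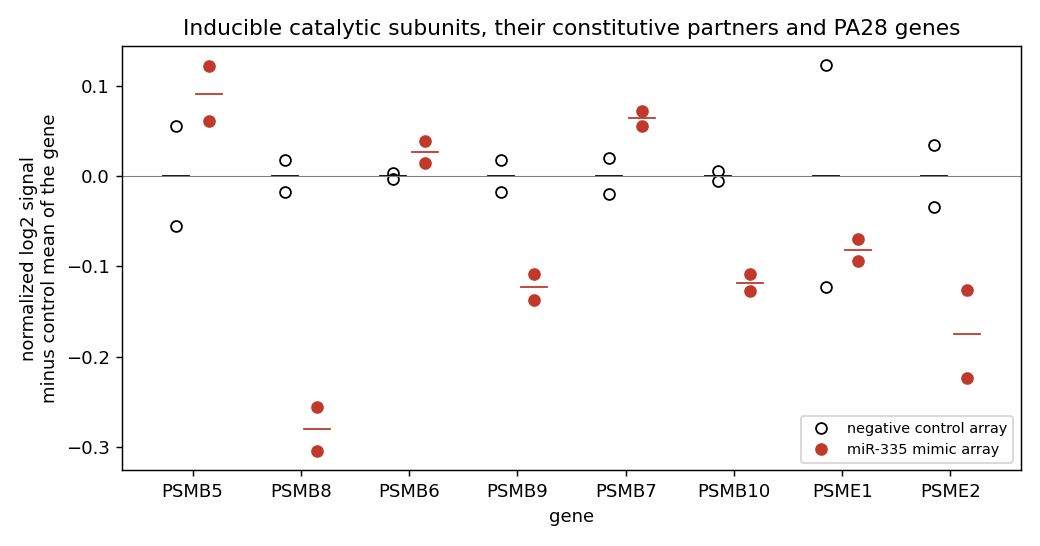
Normalized log2 signal on each array, minus the gene's control mean, for the inducible subunits, their constitutive partners and the PA28 genes. Open points are negative control arrays, filled points miR-335 mimic arrays and short lines group means. Both mimic points are below both control points in PSMB8, PSMB9, PSMB10 and PSME2, above them in PSMB5, PSMB6 and PSMB7, and between them in PSME1.

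Of the activators and the inhibitor, PSME2 was the lowest and the second lowest of all members. PSME2 encodes the beta subunit of PA28 and is at chr14:24612577-24612636 on the minus strand. It read 6.42 and 6.52 with the mimic against 6.68 and 6.61 in the controls, a difference of -0.17 ± 0.057 (limma adjusted p = 0.182). Its partner PSME1, which encodes the alpha subunit and lies nearby at chr14:24606378-24606552, read -0.24 and -0.27 against -0.053 and -0.30. The PSME1 control arrays were the 2 extremes, so its difference of -0.082 ± 0.098 lay within the replicate spread. PSME3, the nuclear activator, PSME4, the large activator PA200, and PSMF1, the inhibitor PI31, overlapped between groups, with differences of -0.0026, 0.0020 and -0.031. The median of the 5 genes was -0.031.

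The constitutive core showed small differences in both directions. The 7 tested alpha ring genes, which form the gate of the barrel, had a median of 0.012, with 4 higher and 3 lower. They ran from PSMA3, at -0.080 ± 0.084, to PSMA2, at 0.075 ± 0.046. PSMA2 read 5.77 and 5.79 with the mimic against 5.74 and 5.67, without overlap. The PSMA3 arrays overlapped, at 4.88 and 5.06 against 5.10 and 5.00. The 7 beta ring genes had a median of 0.052, with 5 higher and 2 lower, from PSMB2 to PSMB4. PSMB2, a noncatalytic subunit, read 4.96 and 4.98 against 5.04 and 5.04, a difference of -0.069 ± 0.036. PSMB4, another noncatalytic subunit, read 5.78 and 5.91 against 5.73 and 5.77, a difference of 0.096 ± 0.062. Both PSMB2 and PSMB4 kept their groups apart, by a small margin in PSMB4, whose difference was 0.029 without mimic replicate 2 and 0.16 without mimic replicate 1. Together the 14 core genes had a median of 0.024, with 9 higher and 5 lower and 0 at an unadjusted limma p under 0.05. The groups did not overlap in 6 with the mimic above and in 4 with the mimic below. These counts are to be read against 46.2% of all tested probes higher, 27.1% with the mimic above and 32.5% below.

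The regulatory cap, like the core, was more often higher than lower. Its 20 genes are counted by name and so include PSMD5, PSMD9 and PSMD10. They had a median of 0.020, with 13 higher (65%, against 46.2% of all tested probes) and 7 lower. PSMD10 is among the lower ones by its brightest probe. The groups did not overlap in 9 with the mimic above (45%, against 27.1% of all tested probes) and in 2 with the mimic below (10%, against 32.5%). Among the 6 ATPases of the base the median was 0.082, 5 of the 6 were higher, and the mimic arrays were above in 4, to be read against the same 46.2% and 27.1% of all probes. PSMC5 was the highest. It read 4.47 and 4.46 with the mimic against 4.32 and 4.32 in the controls, a difference of 0.15 ± 0.036 (limma adjusted p = 0.129). PSMC3 followed at 5.20 and 5.19 against 5.07 and 5.06, a difference of 0.13 ± 0.036 (limma adjusted p = 0.157). Replicates of PSMC5 and PSMC3 lay close together, and the gap between groups was many times wider. So few arrays measure the spread of a single gene poorly, and neither gene passed the test. At the other end, PSMC6 read 3.70 and 3.82 against 3.75 and 3.79, within the replicate spread.

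The 14 PSMD genes had a median of 0.013, with 8 higher and 6 lower. PSMD13, a subunit of the lid of the cap, was the highest of all 46. It read 4.57 and 4.62 with the mimic against 4.44 and 4.45, a difference of 0.15 ± 0.040 (limma adjusted p = 0.143). PSMD4, a ubiquitin receptor, read 5.12 and 5.13 against 4.95 and 5.02, a difference of 0.14 ± 0.044 (limma adjusted p = 0.177). PSMD14, the enzyme that removes ubiquitin chains, read 4.85 and 4.82 against 4.79 and 4.80, a difference of 0.039. The groups were apart in all 3, narrowly in PSMD14. Of the 14 genes, the mimic arrays were above in 5 and below in 2, and the groups overlapped in 7. Over all tested probes 27.1% had the mimic above and 32.5% below. PSMD2, the scaffold subunit of the base, overlapped between groups at -0.011. PSMD5 and PSMD9 assist assembly of the base, as does PSMD10 (gankyrin). PSMD5 differed by -0.0021 with overlapping arrays and PSMD9 by 0.086 without overlap. Of these, PSMC3, PSMD2, PSMD4, PSMD5, PSMD9 and PSMD14, like PSMA1, PSMC2, PSME1, PSME3 and PSMF1, were named after their values were seen.

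The assembly chaperones of the core (PSMG1 to PSMG4), which pair up and guide the alpha ring, had a median of 0.012. PSMG3 was the highest at 3.60 and 3.70 against 3.55 and 3.46, a difference of 0.14 ± 0.060, and PSMG2 the lowest at 1.70 and 1.71 against 1.79 and 1.75, a difference of -0.059 ± 0.039. The groups did not overlap in either gene, and neither passed the test (limma adjusted p = 0.256 and 0.413).

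PSMD10 was the only member with a called probe, and its probes disagreed. Its brightest probe (chrX:107328150-107328209, hg19, minus strand) read 2.46 and 2.39 with the mimic against 2.55 and 2.55, a difference of -0.13 ± 0.044 (limma adjusted p = 0.188). A probe 3.57 kb upstream (chrX:107331718-107331777), given in the files by an Ensembl transcript, read 1.63 and 1.499 against 0.90 and 0.78. That probe was higher by 0.73 ± 0.076, a 1.66-fold ratio, and passed the test (limma adjusted p = 0.0468). Another probe 3.83 kb upstream read 0.37 and 0.35 against 0.23 and 0.23, a difference of 0.13 ± 0.036 (limma adjusted p = 0.148). Each of the 3 probes separated the groups, the brightest with the mimic below and the others with the mimic above. No direction is given for PSMD10 as a gene. In the counts, class medians and order of genes it stands by its brightest probe only. The call of the upstream probe held in 6 of 13 other settings, and its difference stayed between 0.54 and 0.79 in all of them.

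In all, 12 genes had more than 1 tested probe, with 15 further probes, of which 11 were within 0.1 of the brightest probe's difference. Apart from the PSMD10 pair, the exceptions were 1 probe each of PSMC2 and PSMA1. The PSMC2 probe, 5.19 kb upstream of the brightest, read -1.61 and -1.56 with the mimic against -2.58 and -1.98, a difference of 0.70 ± 0.23 (limma adjusted p = 0.183). The control replicates lay further apart than the groups' nearest arrays. The PSMA1 probe, 8.94 kb upstream, read -1.59 and -1.18 against -1.64 and -2.02, a difference of 0.45 ± 0.21 (limma adjusted p = 0.296). Neither passed the test, whereas the brightest probes of these genes differed by 0.016 (PSMC2) and 0.021 (PSMA1). The signs of the probes also differed in PSMD2, PSME4 and PSMF1, where every value was under 0.1.

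**Figure D3:**
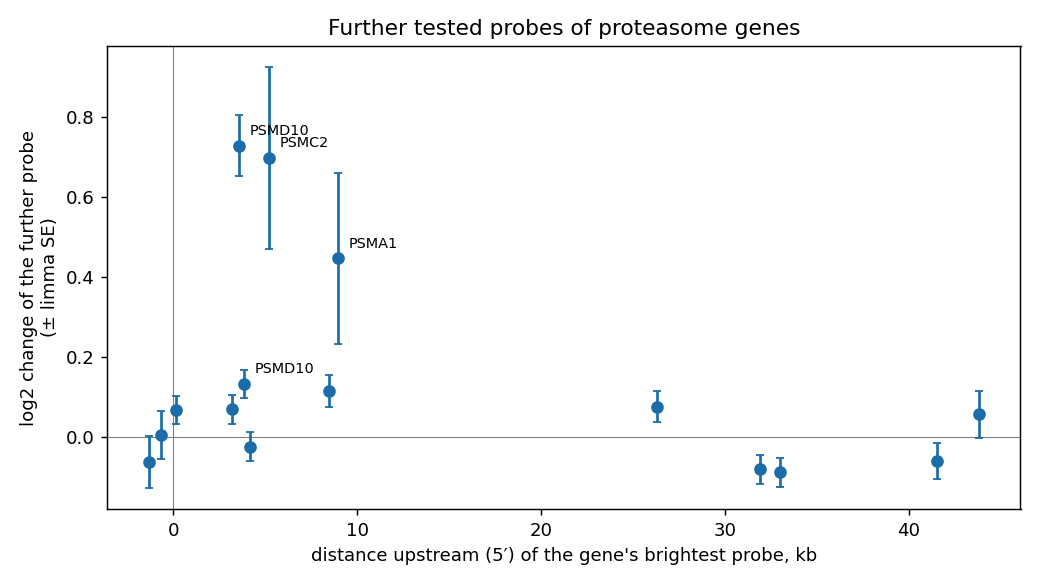
Difference in normalized log2 signal, mimic minus control, of the 15 further tested probes against their distance upstream (toward the gene's 5′ end) of the brightest probe, with limma's standard error. The labelled probes of PSMD10, PSMC2 and PSMA1 stand above the rest, at 0.73, 0.70 and 0.45, and only the PSMD10 probe at 0.73 passed the test.

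Genes around the complex gave 1 call among 38 tested (2.63%), which is the share over all tested probes (2.62% in either direction). The partners of the proteasome, such as assembly factors, deubiquitinases and shuttle proteins that bring it substrates, had 0 of 17 called and a median of -0.044, with 10 lower and 7 higher. The lowest was RAD23B, a shuttle protein, at 2.10 and 2.08 with the mimic against 2.47 and 2.34 (-0.31 ± 0.061, limma adjusted p = 0.101). That is its brightest probe, and the mean over its tested probes differed by only -0.13 (limma adjusted p = 0.225). The highest was ZFAND2A, a proteasome-binding zinc-finger protein induced by arsenite, at 2.63 and 2.67 against 2.44 and 2.48 (0.19 ± 0.043, limma adjusted p = 0.116). Both separated the groups without passing the threshold.

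Among regulators of proteasome gene transcription, 8 of 10 were tested and 1 was called. MAFF, a small Maf protein that pairs with NFE2L1 and NFE2L2, read -1.52 and -1.64 with the mimic against -1.03 and -1.07. It fell by 0.53 ± 0.058 on the log2 scale (limma adjusted p = 0.0492), close to the threshold, and the call held in 5 of 14 other settings. MAFK, of the same family, was the highest at 0.92 and 1.10 against 0.86 and 0.94, with overlapping arrays. NFE2L1, the factor that raises proteasome genes when the proteasome is blocked, overlapped between groups at -0.032. NFE2L2 and DDI2, the protease that activates NFE2L1, were not well above background.

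The ubiquitin supply list as reported here had 5 of 6 genes tested, 0 called and a median of -0.043, with 4 lower and 1 higher. RPS27A, which encodes ubiquitin fused to a ribosomal protein, read 7.36 and 7.42 with the mimic against 7.50 and 7.49 (-0.11 ± 0.043). UBA1, the main enzyme that activates ubiquitin, read 4.02 and 4.03 against 3.98 and 3.98 (0.049 ± 0.036). The arrays of the groups were apart in opposite directions in these genes, and neither passed the test.

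The antigen processing list had the lowest median of these lists, at -0.11, with 6 of 8 tested genes lower and 0 called. The lowest was TAP1, a peptide transporter encoded next to PSMB8 and PSMB9, at 0.71 and 0.70 with the mimic against 1.17 and 1.06. Its replicates with the mimic lay almost on each other, and the groups were far apart (-0.41 ± 0.055, limma adjusted p = 0.0648). The highest was ERAP1, a peptide-trimming aminopeptidase, at 1.35 and 1.38 against 1.26 and 1.30 (0.089 ± 0.040, limma adjusted p = 0.273). B2M, the light chain of class I molecules, overlapped between groups at -0.023. Named after their values were seen, TAPBP and ERAP2, which load and trim peptides, were lower at -0.27 and -0.26 without passing the test (limma adjusted p = 0.0785 and 0.0928).

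**Figure D4:**
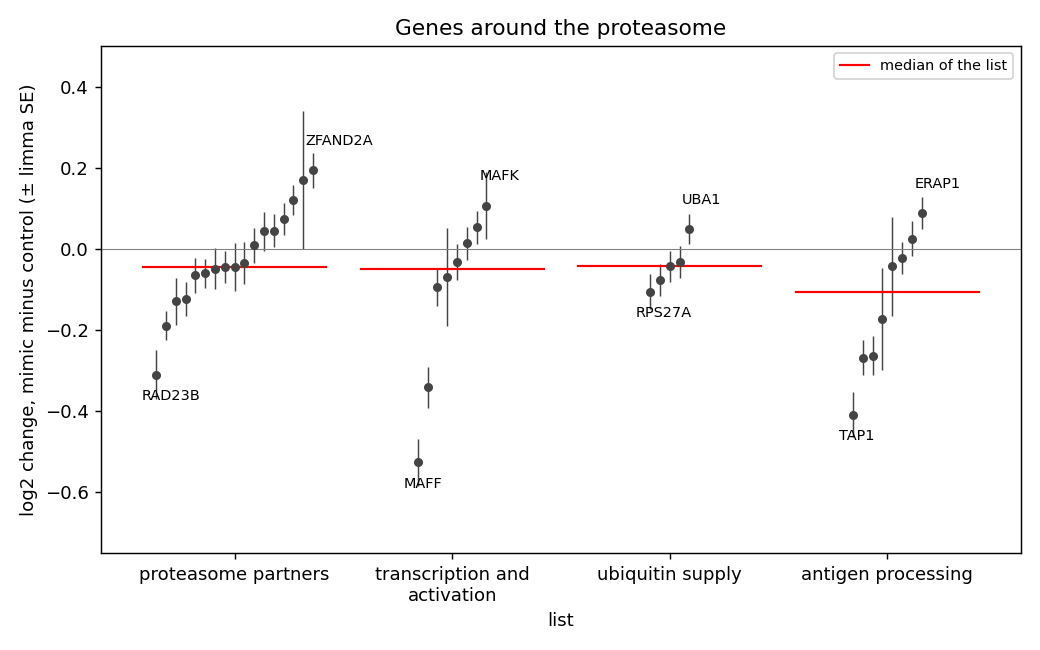
Difference in normalized log2 signal, mimic minus control, of the 38 tested genes of 4 lists around the proteasome, with limma's standard error. Red lines are list medians (-0.044, -0.051, -0.043 and -0.11 from left to right), and the lowest and highest gene of each list is named. Only MAFF, at -0.53, passed the test.

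Scaling to the spike-in probes lowered every member by the same amount. It moved the median of all tested probes to -0.20 and that of the members to -0.18, and 27 members (58.7%) were then called, all lower, against 47.4% of all tested probes called under that scaling. Relative to the median of all probes, PSMB8 was at -0.27 under both scalings, PSMB9 at -0.11 and PSMB10 at -0.10. PSMD13, the highest of the members, was at -0.038 under spike-in scaling, so every member was then lower with the mimic. All core and cap genes counted as higher above turned negative, PSMB5, PSMB6 and PSMB7 among them. Outside the complex, UBA1, MAFK and ERAP1 also turned negative, whereas ZFAND2A stayed positive at 0.0056.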

How the data were processed

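RNA from 4 samples was hybridised to 1-colour Agilent arrays from 100 ng of RNA, and the deposited intensity values are the scanner output of the authors, background-subtracted by Feature Extraction 10.7.3.1 per the file headers, with a flag per spot for outliers and for signal well above background. The study names GeneSpring GX for its own normalization. The processed signal was put on the log2 scale minus each array's 75th percentile. Outlier spots were left out and spots of a probe averaged. Tests used limma 3.58.1 (R 4.3.3), lmFit and eBayes, over all 20328 tested probes. The scanner files were used, with the deposited series value table as an alternative on the log2 scale; its normalization is not given in the sources used here. A few list genes are not reported here and were left out of their lists. Each member class was summarised by counts and medians. Members, lists and alternatives were chosen with earlier results of these data known. Named by rule were the catalytic pairs, genes with a called probe, and the lowest and highest gene of each class and list. Probe coordinates are hg19 as the files give them. RefSeq promoters and miRNAs are GRCh38.p14, and all 48 symbols matched. Scripts were tested on simulated data. Replicate numbers were not used to pair the arrays, except in the replicate block setting.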

Additional observations from a re-analysis of the deposited data

How the results depend on the processing

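The count of called proteasome genes moved from 0 of 46 to 27 with spike-in scaling, against 9642 of 20328 tested probes. It was 7 with an intensity trend in eBayes, against 3083 of all tested probes. Of the 7 genes, 3 were lower (PSMB8, PSMB10 and PSME2) and 4 higher (PSMC3, PSMC5, PSMD4 and PSMD13). The count was 1 with normexp background (PSMB8, limma adjusted p = 0.0323), against 1550 of all tested probes. By the methods' t-test at an unadjusted 0.05 it was 10, for which no count over all probes was made. Under all other settings run, the methods' t-test after adjustment and leaving out any array included, it was 0. With 2 arrays a group, their number limits the precision. The main test did not pair the arrays by number. Differences between replicates correlated at 0.035 over all tested probes, which cannot show whether the arrays were run as pairs. With the replicate block 0 proteasome genes were called (PSMB8 limma adjusted p = 0.154) and 0 pathway genes. PSMB8, PSMB9 and PSMB10 kept their direction in 14 of 14 alternatives read gene by gene, PSMB8 from -0.47 to -0.23, with limma adjusted p from 0.0207 to 0.607. The eBayes trend, robust eBayes and the t-test, which leave the differences unchanged, were not among the 14. Over all tested probes 532 calls became 9642 with spike-in scaling, 3083 with the trend, 1550 with normexp and 0 with no filter or the block. The causes were not tested. The pathway count of 1 of 38 became 26 with spike-in scaling, 8 with the trend and 6 with normexp. These are to be read against the calls over all tested probes under the same settings. It was 0 with no filter, outlier spots kept, quantile normalization, robust eBayes, scaling to detected probes, the adjusted t-test or any array left out.

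Spike-in scaling gave medians of -0.18 for all members, -0.22 activators, -0.18 alpha ring, -0.18 assembly, -0.14 beta ring, -0.11 cap ATPases, -0.18 cap non-ATPases and -0.31 inducible. Every member was lower under it. Of the genes named by rule, those reversed were PSMB5 -0.096, PSMB6 -0.16, PSMB7 -0.12, PSMA2 -0.11 and PSMB4 -0.091. Also reversed were PSMC5 -0.040, PSMD13 -0.038, PSME4 -0.19, PSMG3 -0.046, MAFK -0.081, UBA1 -0.14 and ERAP1 -0.099. Scaling to detected probes gave 0.032 for all members, 0.032 alpha ring, 0.10 ATPases, 0.033 non-ATPases, -0.10 inducible, and PSMC6 0.0078. Normexp gave -0.0053 for all members, -0.020 alpha ring, 0.020 beta ring, 0.061 ATPases, and -0.12 for PSMB9 minus PSMB6. Quantile normalization gave 0.019 beta ring, 0.023 non-ATPases and -0.13 for that pair. The mean over probes gave 0.10 ATPases, 0.038 non-ATPases, PSMD10 0.24, PSME4 -0.031 and RAD23B -0.13. With outlier spots kept PSME4 was -0.0040.

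Leaving out 1 array at a time, the median of all members ranged from -0.0037 to 0.020, activators from -0.069 to -0.0085, alpha ring from -0.014 to 0.027, assembly chaperones from -0.019 to 0.046, beta ring from 0.015 to 0.056, cap ATPases from 0.061 to 0.10 and cap non-ATPases from 0.0055 to 0.020. PSMA3 ranged from -0.17 to 0.010 (positive without mimic replicate 1), PSMC6 from -0.070 to 0.044 (positive without mimic replicate 1 and, at 0.0071, without control replicate 2), and PSME4 from -0.0085 to 0.012 (negative without control replicate 1 and, at -0.0026, without mimic replicate 1). Differences that kept their direction but moved by over 1.5 times were PSMB5 (0.036 to 0.15, without control replicates 1 and 2), PSMB4 (0.029 to 0.16, without mimic replicates 2 and 1), MAFK (0.015 to 0.20, without mimic replicates 2 and 1, and 0.064 without control replicate 1), PSMA2 (0.039) without control replicate 2, PSMB6 (0.015) and PSMG3 (0.091) without mimic replicate 2, and PSMG2 (-0.038) without control replicate 1.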
